A study of Mus musculus with 12 samples.

Results

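The genes described here are 10 that mark fat cells: Adipoq, Plin1, Plin4, Cidec, Cfd, Lep, Retn, Fabp4, Pck1 and Ucp1. They were found by symbol among 78298 gene identifiers, and each of the 10 symbols matched 1 identifier. After removal of genes with low counts, 22190 genes were tested, and 7 of the 10 were among them; Lep, Pck1 and Ucp1 were not. The set was put together with the CPM levels of its genes in these libraries already known, so it counts as chosen by those levels. Differences of the members between groups are therefore a description, and nothing is supported with them.

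The 12 libraries came from mouse lung, with 3 in each of 4 groups: normal lung beside the tumour under VEH, normal lung under HDM, LLC tumour under VEH and LLC tumour under HDM. HDM is house dust mite, per the series title, and its exposure was chronic. The labels spell out neither VEH nor LLC, and they give no strain, age, sex, dose or time. All pieces were cut out by hand under a microscope, frozen, and taken in small aliquots for RNA, and all libraries carry the same batch label. The labels do not state whether the 3 libraries of a group came from separate animals, so the spread between them may be partly technical. Their library-name prefixes differ within each group, but what a prefix stands for is not stated. Total counts ranged from 20608682 to 32765364. Each of 6 library-name prefixes joins 1 normal and 1 tumour library, and for 2 of them the treatments disagree: tumour HDM replicate 2 shares its prefix with normal VEH replicate 2, and tumour VEH replicate 3 shares its prefix with normal HDM replicate 3. Calls of members, and counts of wider genes called in tumour against normal lung, are given with these 4 libraries and without them. Levels, fold bounds, list sums and most single wider genes are not given without them.

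A fat cell stores triglyceride in a lipid droplet. Perilipins and Cidec coat that droplet, and hormones such as adiponectin and leptin leave the cell for the blood. Adipocyte genes are switched on together by PPARG and C/EBP factors. Fat lies around the heart, the large vessels and the airways of the mediastinum, and the healthy alveolar wall holds few adipocytes. Several of the genes are not specific to fat: Fabp4 is also made by capillary endothelium and macrophages, and Pck1 is best known from liver and kidney.

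Promoter sequence is shown for 3 genes, Adipoq, Plin1 and Cfd, as examples of a hormone, a droplet protein and a secreted protease, to set what lies upstream beside their levels. Their levels in normal lung under HDM and VEH did not overlap, which also held for Cidec and Pck1. Each is the 250 bases before the first base of the RefSeq transcript, on the GRCm38.p6 build and read 5′ to 3′ on the gene's strand. Capitals mark CCAAT on either strand (ATTGG is its reverse complement). Adipoq lies on the plus strand at chr16:23146286-23146535, Plin1 on the minus strand at chr7:79732777-79733026, and Cfd on the plus strand at chr10:79890603-79890852.
Adipoq: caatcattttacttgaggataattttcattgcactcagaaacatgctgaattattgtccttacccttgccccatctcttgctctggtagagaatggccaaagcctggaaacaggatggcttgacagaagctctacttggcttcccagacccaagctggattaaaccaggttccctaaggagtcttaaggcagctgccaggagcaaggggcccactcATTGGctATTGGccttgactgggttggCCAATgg
Plin1: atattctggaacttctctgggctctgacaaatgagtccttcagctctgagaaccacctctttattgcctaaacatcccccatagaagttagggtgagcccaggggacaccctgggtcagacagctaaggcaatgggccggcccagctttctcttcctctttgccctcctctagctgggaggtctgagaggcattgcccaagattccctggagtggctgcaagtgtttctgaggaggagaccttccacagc
Cfd: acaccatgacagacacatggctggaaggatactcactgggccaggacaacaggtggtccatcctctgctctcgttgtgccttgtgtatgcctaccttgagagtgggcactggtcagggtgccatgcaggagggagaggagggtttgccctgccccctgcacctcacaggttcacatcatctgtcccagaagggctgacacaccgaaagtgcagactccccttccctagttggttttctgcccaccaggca

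The RefSeq table held such a window for 9 of the 10 genes; Fabp4 had none. The direct repeat of AGGTCA with 1 base between its copies, the form of site bound by PPARG with RXR, was not found in any of these windows, whether exact or with up to 2 mismatches. Among all 32851 promoters, 0.0335% held it exactly and 3.24% within 2 mismatches. The pattern TTGCNNCAA (1.74% of promoters) and TATAAA (12.4%) also had no match. CCAAT and the palindrome TTGCGCAA, a form of site bound by C/EBP factors, were searched after the sequences were seen. The palindrome occurred once, in the window of Lep, 55 to 48 bases upstream, and in 0.164% of all promoters. CCAAT occurred in the windows of Adipoq and Plin4 and in 33.8% of all promoters. In Adipoq it occurred 3 times within 34 bases of the start. In Plin4 it occurred once, 18 to 14 bases upstream. All motifs were searched on both strands; a match is a run of letters, and its absence concerns these windows alone.

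Adipoq encodes adiponectin, the hormone most specific to fat cells, and lies on chromosome 16 (22964106 to 22976810, plus strand, GRCm39). Its counts in normal lung under HDM were 14, 102 and 34 in replicates 1, 2 and 3. Under VEH they were 2, 0 and 0. Every normal HDM library was thus above every normal VEH library, and replicate 2 stood highest. Among tumours, HDM replicate 3 had 40 counts and VEH replicate 2 had 4, and the other tumour libraries had none. In CPM, a unit that corrects counts for sequencing depth with TMM factors, the means were 1.89 ± 1.73 (SD, n = 3) in normal HDM and 0.404 ± 0.700 (SD, n = 3) in tumour HDM. A count of 3 in a library, taken here as the floor of detection for counting error alone, equals 0.0910 to 0.138 CPM. The normal VEH libraries were all at or below it. Against that floor, Adipoq was at least 16.5-fold higher in normal lung under HDM, and at least 7.96-fold without HDM replicate 2. The Adipoq counts were all even numbers. If counts came in pairs, the floor would be too low. This bound, like the others set against the floor, would then be too high, which was not tested.

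Cfd encodes adipsin, a complement protease secreted by fat cells (chromosome 10, 79726668 to 79728496, plus strand, GRCm39). In normal HDM its counts were 186, 602 and 538, against 172, 16 and 0 in normal VEH. The lowest HDM library and the highest VEH library lay close together, at 7.62 and 7.06 CPM. In tumours the counts were 30, 0 and 191 under HDM and 0, 48 and 10 under VEH. Tumour HDM replicate 3, the tumour with Adipoq, was the highest tumour for Cfd too.

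Retn encodes resistin, a small secreted peptide of mouse fat (chromosome 8, 3705324 to 3710689, plus strand, GRCm39). Its counts were 14, 34 and 19 in normal HDM and 24, 0 and 6 in normal VEH. No tumour library had more than 2. Lep encodes leptin, the hormone that reports fat stores to the brain (chromosome 6, 29060216 to 29073877, plus strand, GRCm39). It was counted 6 times in each of normal HDM replicates 2 and 3 and was at 0 in the 10 other libraries. In CPM, these 2 libraries were also the highest for Adipoq, Plin1 and Cfd; for Adipoq, tumour HDM replicate 3 was close behind, at 1.21 against 1.25 CPM in normal HDM replicate 3.

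Plin1 encodes perilipin 1, which guards the lipid droplet of fat cells against lipolysis (chromosome 7, 79369966 to 79382718, minus strand, GRCm39). In normal HDM its counts were 11, 82 and 69, and in normal VEH they were 6, 8 and 6. Normal VEH was narrow, at 0.250 ± 0.00335 CPM (SD, n = 3), and normal HDM was wide, at 2.03 ± 1.39. Tumour HDM replicate 3 had 12 counts, tumour VEH replicate 2 had 2, and the remaining tumours had none.

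Cidec encodes a protein that fuses lipid droplets into a large one (chromosome 6, 113400691 to 113412721, minus strand, GRCm39). It was present in all normal lung libraries, with 91, 189 and 90 counts under HDM and 48, 82 and 78 under VEH. In tumours it was counted 0, 0 and 12 times under HDM and 0, 36 and 4 times under VEH. Cidec thus differed from Adipoq in that normal VEH lung held it as well, at 2.61 ± 0.657 CPM (SD, n = 3) against 4.73 ± 2.10 under HDM.

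Plin4 encodes a perilipin that coats small, nascent droplets (chromosome 17, 56406617 to 56416931, minus strand, GRCm39). Its counts were 143, 103 and 310 in normal HDM and 163, 73 and 17 in normal VEH. In tumours they were 15, 10 and 28 under HDM and 11, 22 and 6 under VEH. Plin4 was counted in all 12 libraries, and normal VEH replicate 3 overlapped the tumours. By gene start and end, Plin4 overlaps Hdgfl2 on the opposite strand, which carried 15452 counts in all against 901 for Plin4. Hdgfl2 was higher in every tumour library than in any normal one.

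Pck1 encodes the enzyme that feeds glyceride and glucose synthesis (chromosome 2, 172994744 to 173001066, plus strand, GRCm39). It had 12, 54 and 10 counts in normal HDM, 8, 0 and 0 in normal VEH, 2 in tumour HDM replicate 3 and none in the other tumours. Ucp1 encodes the proton channel by which brown fat makes heat (chromosome 8, 84016647 to 84025085, plus strand, GRCm39). It had 2 counts in normal VEH replicate 3 and none elsewhere, so brown fat's defining gene was at or below the floor in every library.

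Fabp4 encodes a fatty acid carrier (chromosome 3, 10268785 to 10273737, minus strand, GRCm39) and was the most counted of the 10. Its counts in normal HDM were 1768, 780 and 172, and in normal VEH they were 90, 2393 and 148. The high normal libraries were thus HDM replicates 1 and 2 and VEH replicate 2; of these, HDM replicate 2 was also the highest for Adipoq, and VEH replicate 2 had no count of Adipoq. In tumours the counts were 176, 118 and 680 under HDM and 174, 62 and 178 under VEH, with the highest again in HDM replicate 3. Tumours and normal lung overlapped, and tumour VEH replicate 2 was the lowest of the 12 libraries.

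**Figure D1:**
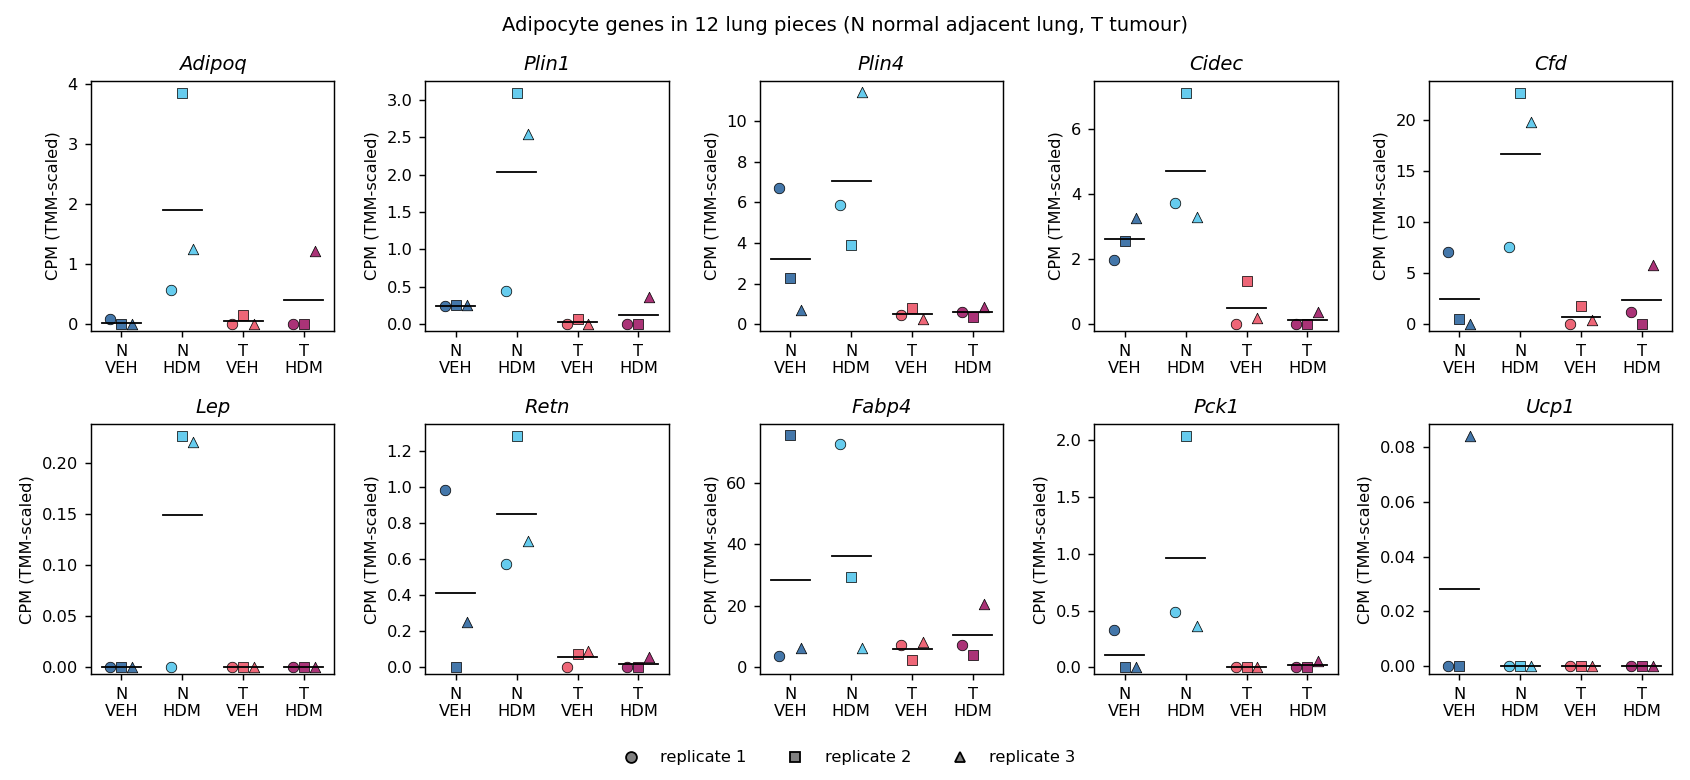
Level of each of the 10 genes (y axis, CPM after TMM scaling, a separate scale per gene) in the 4 groups (x axis; N normal lung, T tumour). Points are single libraries, with shape giving the replicate number, and bars are group means. Adipoq lies at 0.573 to 3.85 in normal HDM and at or below 0.0821 in normal VEH, whereas Fabp4 is high in 3 normal libraries of both treatments.

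Levels of different genes were compared per length, in TPM, which divides counts by the deposited gene lengths before scaling. In normal HDM lung the order was Cfd at 38.4 ± 17.2 (SD, n = 3), Fabp4 at 17.4 ± 17.0, Cidec at 5.36 ± 1.96, Adipoq at 2.82 ± 2.40, Plin4 at 2.43 ± 1.43, Retn at 1.14 ± 0.417, Plin1 at 0.918 ± 0.609, Pck1 at 0.579 ± 0.519 and Lep at 0.0935 ± 0.0813. Ucp1 was at 0. Each neighbouring pair from Cfd to Lep overlapped within 1 SD. In normal VEH lung Fabp4 led at 14.0 ± 20.9, then Cfd at 4.64 ± 6.99 and Cidec at 2.69 ± 0.811. Adipoq, at 0.0328 ± 0.0568, came after Plin4, Retn, Plin1 and Pck1 there. In these bulk pieces, fewer cells of a type and less RNA per cell cannot be told apart.

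Tumours were compared with normal lung to ask which adipocyte genes differ between the tissues. Under HDM, Cidec, Plin1, Plin4 and Retn were lower in tumours, and under VEH only Plin4 passed the test. With edgeR's quasi-likelihood test and Benjamini-Hochberg adjustment over all 22190 genes at 0.05, 4 of the 7 tested members were lower and 0 higher under HDM. Of all genes, 51.9% passed there, 28.9% lower and 23% higher. Under VEH, 1 of 7 was lower, where 38.9% of all genes passed, 20.6% lower and 18.2% higher. A gene such as Retn entered the test through its normal libraries alone, so a count over these 7 is no evidence about the set.

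Under HDM the log2 change of Plin4, tumour minus normal, was -3.54 ± 0.81 (SE, edgeR adjusted p = 0.00441). That of Cidec was -5.15 ± 1.44 (edgeR adjusted p = 0.0124), and that of Plin1 was -3.94 ± 1.29 (edgeR adjusted p = 0.0251). Retn did not exceed the floor in any tumour under HDM, and normal lung held at least 8.07-fold more of it (edgeR adjusted p = 0.0202). For these 4 genes, every HDM tumour was below every HDM normal library, which 33.5% of all genes showed. The same held for Cfd, at -2.83 ± 1.79, which did not pass. Without the 4 libraries of conflicting prefix, 2 libraries a group remained and 0 of 8 tested members passed. Their values then were -2.63 ± 1.00 for Plin4, -4.69 ± 1.82 for Cidec, -3.08 ± 1.56 for Plin1 and -4.52 ± 1.51 for Retn. Leaving out normal HDM replicate 2, tumour HDM replicate 1 or tumour HDM replicate 2 left 2 calls. With a block for library-name prefix, Plin4 kept its call at -3.22 ± 1.01 (edgeR adjusted p = 0.0488), and the calls of Cidec (edgeR adjusted p = 0.0535), Plin1 (0.204) and Retn (0.117) ended.

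Adipoq and Fabp4 did not pass under HDM, at -2.18 ± 1.55 and -1.76 ± 1.18. With the prefix block, Fabp4 passed, at -2.19 ± 0.57 (edgeR adjusted p = 0.0310). Tumour HDM replicate 3 alone held Adipoq among HDM tumours. Without it the value for Adipoq was -8.54, and the call was then made. The HDM tumours left then held no count of Adipoq, so that value rests on the normal libraries. Under VEH the log2 change of Plin4 was -2.61 ± 0.79 (SE, edgeR adjusted p = 0.0242). The call ended without the 4 libraries of conflicting prefix, at -2.42 ± 1.00, and without normal VEH replicate 1, tumour VEH replicate 1 or tumour VEH replicate 3. Cidec and Plin1 were lower in every VEH tumour than in any VEH normal library, as 28.5% of all genes were. They did not pass, at -2.33 ± 1.25 and -3.01 ± 1.55. Plin1 did not exceed the floor in any VEH tumour, and VEH normal lung held at least 1.99-fold more of it. Fabp4 was at -2.25 ± 1.21 with all libraries and at 0.07 ± 0.78 without the conflicting ones, which removes normal VEH replicate 2, the highest library.

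Normal lung under HDM was compared with normal lung under VEH to ask whether exposure came with a change of these genes. No member passed the test, and none of the 22190 genes did (0%). Adipoq, Plin1, Cidec and Cfd were higher in every HDM library than in any VEH library. That is 4 of 7 where 4.47% of all genes were higher without overlap, but these levels were known when the set was chosen, so nothing is read from the difference. The log2 changes were 3.0 ± 1.2 for Plin1, 2.73 ± 1.79 for Cfd, 0.85 ± 1.16 for Cidec, 1.12 ± 0.73 for Plin4, 1.06 ± 1.21 for Retn and 0.34 ± 1.15 for Fabp4. At an unadjusted p under 0.05, 2 of 7 members passed, Adipoq and Plin1, where 5.54% of all genes did. The Wald test of DESeq2 called 0 of the 6 members it gave an adjusted p for; Retn had none. Without the 4 conflicting libraries, Plin1 was at 2.78 ± 1.54 and Cfd at 2.08 ± 2.19, while Fabp4 went to 3.38 ± 0.84.

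In tumours, HDM against VEH gave no call among the 7 members and no gene without overlap, where 0.0946% of all genes were called and 22% did not overlap. None of the 7 members reached an unadjusted p under 0.05, where 16.7% of all genes did, and DESeq2 called 0 as well. Tumour HDM replicate 3 set the direction for Adipoq, at 2.85 ± 1.84 with it and -3.62 without it, and for Plin1, at 2.06 ± 1.59 and -2.76. Without it, the HDM tumours held 0 counts of either gene. Among VEH tumours only replicate 2 held any, with 4 counts of Adipoq and 2 of Plin1. The negative values thus rest on almost no counts. The difference between the tissues in the effect of HDM (the interaction) also called 0 of 7, and 0% of all genes. None of the 7 members and 9.39% of all genes had an unadjusted p under 0.05 for it.

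**Figure D2:**
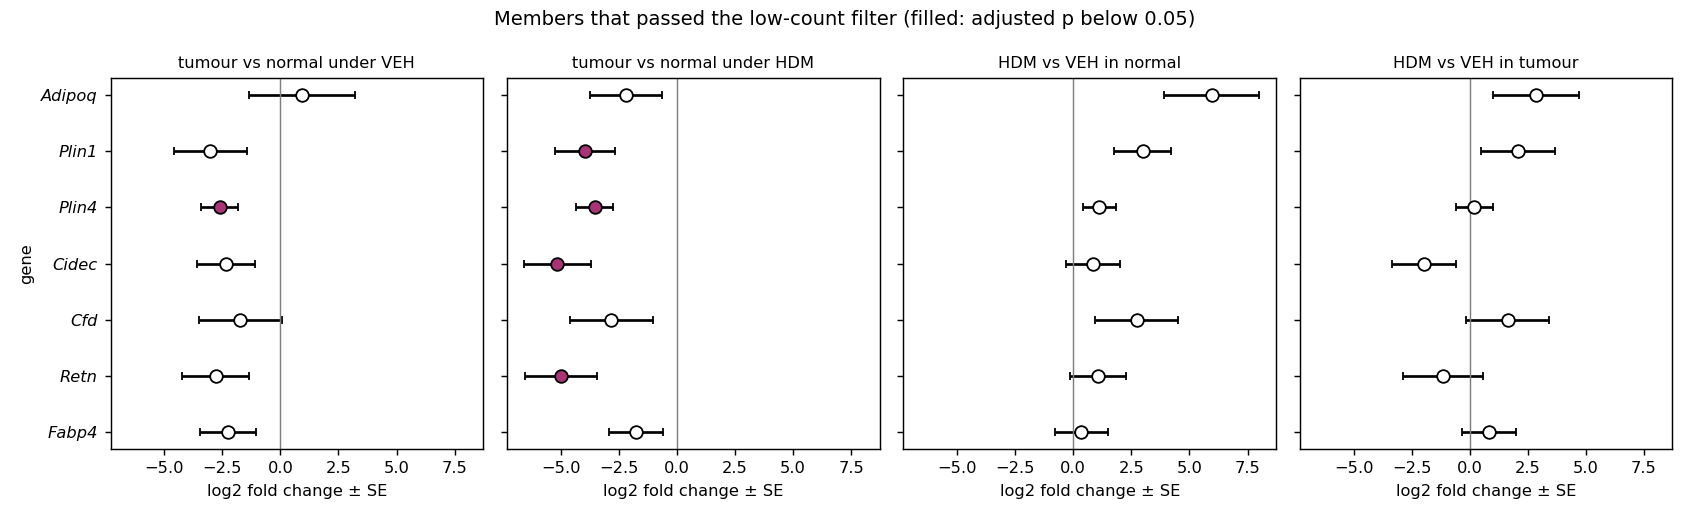
Log2 fold change with its SE (x axis) of the 7 members that passed the low-count filter (y axis) in 4 comparisons, from the edgeR fit of all genes. Filled points passed at an adjusted p below 0.05: Plin4 under VEH and Plin1, Plin4, Cidec and Retn under HDM, all lower in tumours, and none in the comparisons of HDM with VEH.

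Another 94 genes of fat biology in 8 lists put the members in their pathway; 93 matched a symbol and 85 were tested. Under VEH 39 of the 85 were lower in tumours, 4 were higher and 42 did not pass. Of all genes tested, 20.6% were lower and 18.2% higher there. Under HDM 49 were lower, 6 higher and 30 did not pass, where 28.9% of all genes were lower and 23% higher. The counts of each list below stand against these same shares. The lists were chosen with earlier results of these data known. A gene such as Mlxipl, at the floor in VEH tumours, entered the test through its normal libraries alone. The counts and medians of the lists are therefore a description, and nothing is supported with them. The median log2 change of the 85 was -1.42 under VEH and -2.08 under HDM, against -0.11 and -0.08 over all genes tested. Without the conflicting libraries 19 were lower and 8 higher under VEH, and 43 and 6 under HDM. Without tumour VEH replicate 3, 23 in all passed under VEH, and without tumour VEH replicate 1, 28 did. The shares of all genes are not given for these fits that left libraries out. Scaling by library size alone moved the median of all genes from -0.11 to 0.03 under VEH and from -0.08 to 0.10 under HDM. With it 34 and 44 of the 85 were lower, as were 3910 and 5723 of the 22190 genes tested.

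Of the adipogenic regulators, 8 of 10 tested were lower in tumours under VEH and 7 of 10 under HDM, and none was higher. Pparg, the nuclear receptor that drives fat cell differentiation, had a mean of 16.2 ± 7.76 CPM (SD, n = 3) in normal VEH lung and 2.13 ± 1.59 in VEH tumours. Under HDM it was 21.0 ± 9.59 and 1.67 ± 0.336, a log2 change of -3.65 ± 0.62. Klf15, a factor induced by glucocorticoids, was lower under HDM by a log2 change of -5.31 ± 1.10. Mlxipl, the carbohydrate-sensing factor ChREBP, was at the floor in VEH tumours and at least 11.2-fold lower than in normal lung. Alveolar macrophages are known to depend on Pparg as well.

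Among 15 genes of fat synthesis, 5 were lower and 1 higher in tumours under VEH, and 6 and 1 under HDM. Acacb, the acetyl-CoA carboxylase of mitochondria, was at 21.2 ± 1.06 CPM (SD, n = 3) in normal HDM and 1.57 ± 0.299 in HDM tumours, a log2 change of -3.75 ± 0.31. Thrsp, a lipogenic protein of fat and liver, changed by -4.30 ± 1.19 under HDM, a call that ended without the 4 conflicting libraries (edgeR adjusted p = 0.0982). Elovl6, which lengthens fatty acids, was the 1 higher gene, by 2.20 ± 0.47 under VEH and 2.96 ± 0.49 under HDM; it was named after its values were seen.

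Of 15 tested genes of lipid droplets and lipolysis, 9 were lower and 1 higher under VEH, and 11 and 1 under HDM. G0s2, an inhibitor of the main triglyceride lipase, was at 25.9 ± 17.8 CPM (SD, n = 3) in normal HDM and 0.661 ± 0.605 in HDM tumours, a log2 change of -5.32 ± 0.94. Adrb3, the adrenergic receptor that starts lipolysis in fat, was at the floor in HDM tumours and at least 53.4-fold lower than in normal lung. Without normal HDM replicate 3, the highest of its group, the bound was 23.2-fold. Unlike Adipoq, Adrb3 was at like levels in normal VEH and HDM lung, at 5.48 ± 4.28 and 5.64 ± 5.52 CPM. The gene for G0s2 overlaps Lamb3 on the opposite strand by gene start and end, and how far reads of such pairs mix was not tested.

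For uptake of fat and glucose, 4 of 9 genes were lower and 1 higher under VEH, and 6 and 2 under HDM. Cd36, a fatty acid transporter also abundant in capillary endothelium, was at 992 ± 235 CPM (SD, n = 3) in normal HDM and 81.4 ± 56.0 in HDM tumours. Slc2a4, the insulin-responsive glucose transporter of fat and muscle, changed by -6.10 ± 1.20 under HDM. Of the 8 tested brown fat genes, 3 were lower under VEH with none higher, and 5 were lower and 1 higher under HDM. Cox8b, a respiratory subunit of brown fat and heart, was at 0 in each tumour under HDM and at least 8.99-fold higher in normal lung, and Kcnk3, a potassium channel, changed by -5.87 ± 0.94. By gene start and end, Cox8b, with 194 counts in all, overlaps Psmd13 on the opposite strand, which had 34019.

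Of 11 other fat hormones and receptors, 3 were lower under VEH and 4 under HDM. Lepr, the leptin receptor, was at 64.3 ± 26.5 CPM (SD, n = 3) in normal HDM and 3.10 ± 1.97 in HDM tumours. Of 11 tested surface and secreted markers of fat, 4 were lower under VEH and 6 under HDM. In normal lung that list summed to 1218, 2541 and 2088 CPM under HDM and 3685, 1077 and 2974 under VEH. It was thus highest in normal VEH replicates 1 and 3, which held 2 and 0 counts of Adipoq. The part of fat cells in its level was not tested. Npr3, which clears natriuretic peptides, was at 66.8 ± 29.2 CPM in normal HDM and 1.55 ± 0.990 in HDM tumours. Of 6 genes of adipocyte progenitors, 3 were lower and 1 higher under VEH, and 4 and 1 under HDM. Dpp4, a surface peptidase of early progenitors, was at 80.6 ± 2.99 and 4.77 ± 3.23 CPM. Dlk1, which holds back adipocyte differentiation, was the 1 higher gene: it was at the floor in normal HDM and at least 4.03-fold higher in HDM tumours, or 2.49-fold without tumour HDM replicate 1. Its call under HDM ended with a block for library-name prefix (edgeR adjusted p = 0.0911). Under VEH the log2 change of Dlk1 was 3.61 ± 1.23 (edgeR adjusted p = 0.0456). That call was made in 2 of the 12 fits that each left out 1 library, which gave 3.09 to 7.91, and it ended with a replicate block (adjusted p = 0.0860), with the prefix block (0.0859) and with no low-count filter (0.0576).

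Between HDM and VEH, the wider genes gave 0 calls in normal lung, and DESeq2 called 0. An unadjusted p under 0.05 was reached by 6 of 85, where 5.54% of all genes reached it. In tumours 1 of 85 passed, against 0.0946% of all genes. That gene was Ly6a, the stem cell antigen Sca-1 that marks progenitors and endothelium. It was at 59.3 ± 26.5 CPM (SD, n = 3) in HDM tumours and 296 ± 33.5 in VEH tumours, a log2 change of -2.32 ± 0.31 (edgeR adjusted p = 0.0340). The call ended without the conflicting libraries, at -2.66 ± 0.35, where 0 genes passed, and in 10 of 12 fits that left out 1 library, whose values ran from -2.66 to -1.99. DESeq2 called 5 of the 85. The interaction gave 0 of 85, and 2 by DESeq2. For it, 9 of 85 had an unadjusted p under 0.05, where 9.39% of all genes did. The shares of all genes that DESeq2 called are not given here, so nothing is read from its 5 and 2.

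**Figure D3:**
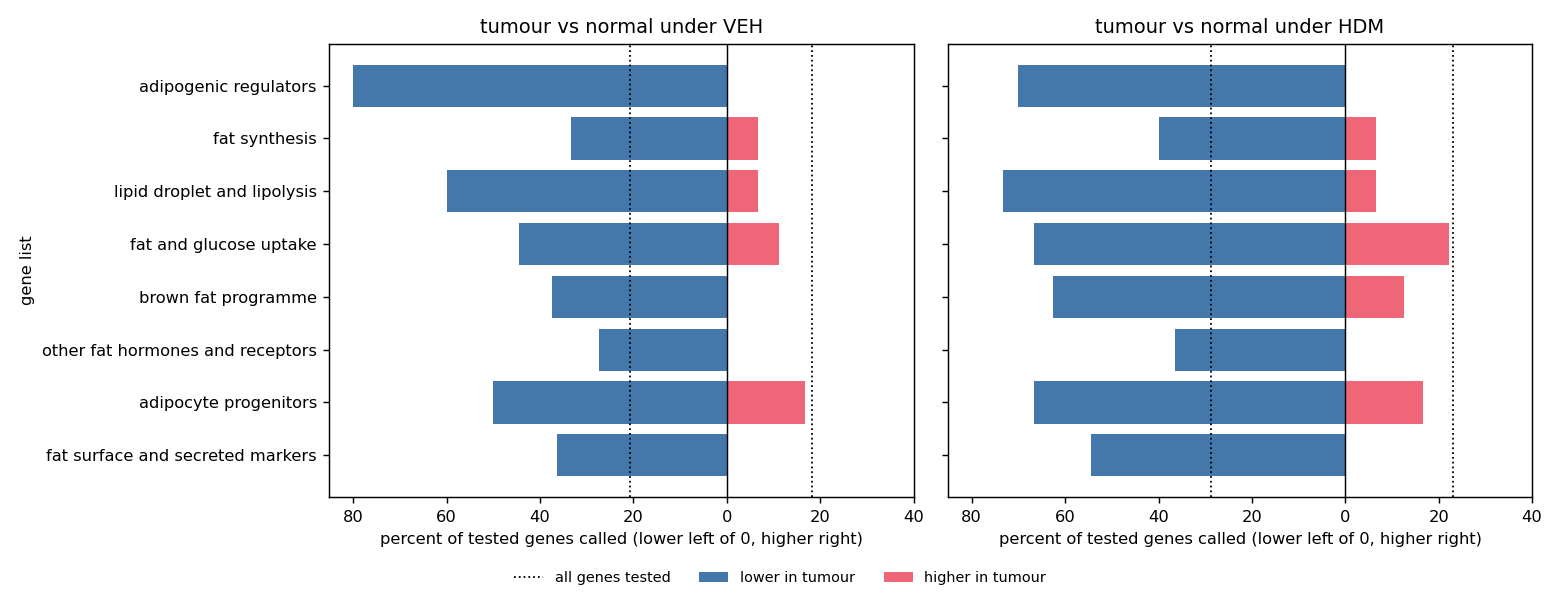
Share of tested genes (x axis, percent) in 8 lists of fat biology (y axis) that were lower (bars left of 0) or higher (bars right of 0) in tumours, under VEH and under HDM. Dotted lines give the share over all 22190 genes, 20.6% lower and 18.2% higher under VEH and 28.9% and 23% under HDM.

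The members did not follow each other alike. Over the 12 libraries, Adipoq had a Pearson r of 0.85 with Plin1, 0.83 with Cfd, 0.66 with Retn, 0.61 with Plin4, 0.56 with Cidec and 0.34 with Fabp4, on log2 CPM. These points share depth and tissue, and low counts take part, so the values are a description. Of 14085 named candidate genes outside the set, Car3, a carbonic anhydrase of fat and muscle, was the most like Adipoq at 0.84. Next came Aar2 at 0.80, Txlnb and Pcdhac2 at 0.79, Casq2 and Glcci1 at 0.78, Hp1bp3 at 0.76, Mybpc3 at 0.75, and Vwa8 and Ckmt2 at 0.74. Casq2 is the calcium-binding protein of the cardiac sarcoplasmic reticulum, and Mybpc3 is a myosin-binding protein of heart. Only 3 of these 10, Car3, Aar2 and Txlnb, were also among the 10 highest by Spearman's rho. By it Casq2 ranked 125, Mybpc3 428 and Ckmt2 466. Over the 6 normal libraries alone, 1 of 10 was among the highest, Casq2 at rank 6, with Ckmt2 at 57 and Mybpc3 at 63.

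Genes most like Fabp4 were different ones: Cyp4f16 at 0.93, Stfa2l1 at 0.90, Awat1 at 0.87, and Trem3 and Plekhb2 at 0.86. Of these 5, 2 were among the 5 highest by Spearman's rho and 1 over the normal libraries. Ucp1 was too low for such a comparison.

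Genes of other tissues were summed in each library because a dissected piece can hold them. The 12 genes of cardiac muscle summed to 220, 499 and 469 CPM in normal HDM replicates 1, 2 and 3 and to 283, 62.1 and 45.8 CPM in normal VEH. In tumours they summed to 1.40 to 18.8 CPM. The normal HDM libraries with the most Adipoq were thus those with the most cardiac muscle RNA. The median log2 change of the 9 cardiac genes tested, HDM against VEH in normal lung, was 2.84, and 0 of 9 passed. The match was not complete: normal VEH replicate 1 had 283 CPM of cardiac genes with 2 counts of Adipoq, and tumour HDM replicate 3 had the least, 1.40 CPM, with 40 counts of Adipoq. Myh6, the heavy chain of the adult mouse heart, was at 0 in tumour HDM replicate 3. The part of such tissue in the levels of the adipocyte genes was not tested.

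The 10 genes of alveolar macrophages summed to 8647, 6155 and 304 CPM in normal HDM and to 371, 8146 and 453 CPM in normal VEH. The 3 high libraries were the 3 with the most Fabp4, with 72.4, 29.4 and 75.3 CPM of it. Across the other 3 normal libraries Fabp4 was at 3.70 to 6.33 CPM. In tumours the macrophage genes summed to 27.2 to 331 CPM, and the tumour with the most Fabp4, HDM replicate 3 at 20.6 CPM, had the fewest. It also had the lowest sums of capillary endothelial genes, 160 CPM, and of alveolar epithelial genes, 109 CPM. In it Adipoq, Cfd, Plin1, Plin4, Cidec and Fabp4 were each the highest of the HDM tumours. The part of macrophages in the level of Fabp4 was not tested.

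All 12 capillary endothelial genes were lower in tumours in both treatments, with median log2 changes of -2.64 under VEH and -3.59 under HDM. Over all genes tested, 20.6% were lower and 18.2% higher under VEH, and 28.9% and 23% under HDM. The alveolar epithelial list had 3 of 10 lower under VEH and 10 of 10 under HDM, and the mesothelial list 7 and 4 of 10. Cardiac muscle had 3 of 9 lower under VEH and 8 of 9 under HDM, alveolar macrophages 5 and 7 of 10, nerve 5 of 6 in both, and lymphoid tissue 3 and 7 of 8. Skeletal muscle had 0 and 1 of 6 lower, and thymus and liver had 1 of 2 each. None of these lists had a higher gene in either comparison. Their part in the lower adipocyte genes of tumours was not tested.

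**Figure D4:**
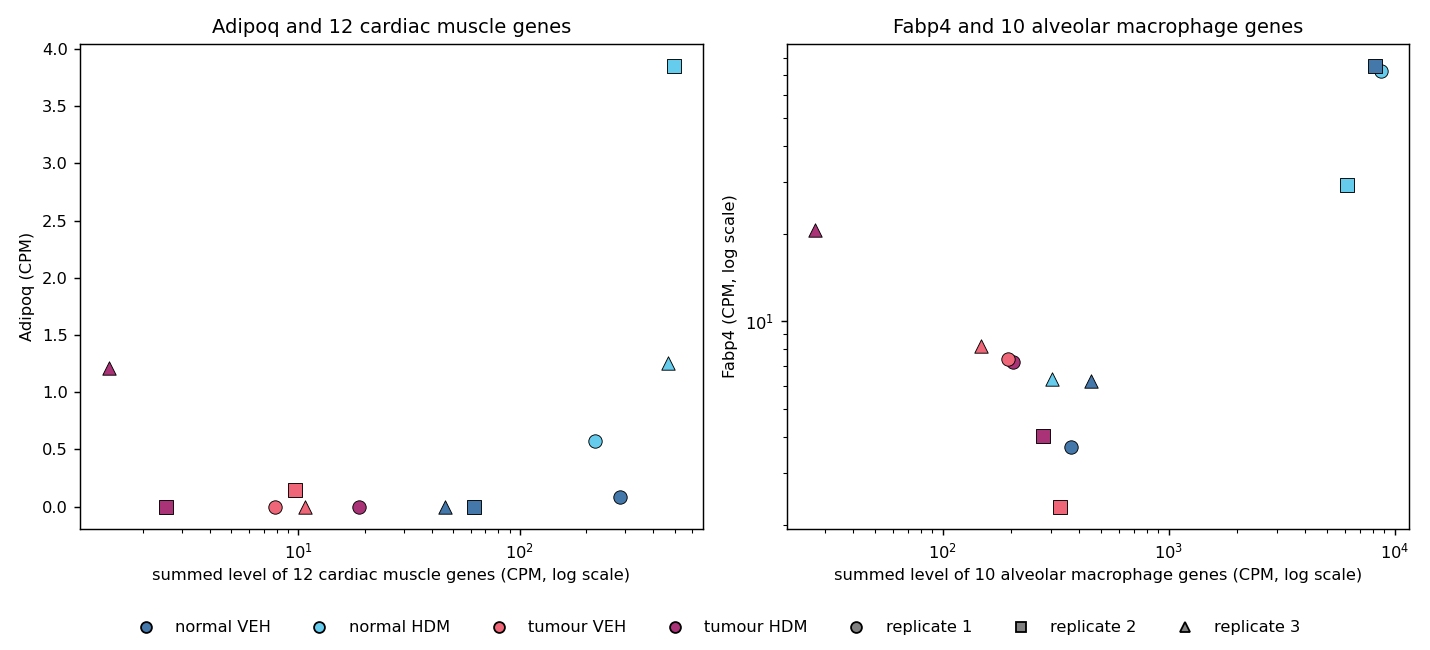
Left, Adipoq (y axis, CPM) against the summed level of 12 cardiac muscle genes (x axis, CPM, log scale). Right, Fabp4 (y axis, CPM, log scale) against the summed level of 10 alveolar macrophage genes (x axis, CPM, log scale). Points are the 12 libraries, with colour giving the group and shape the replicate. Tumour HDM replicate 3 stands apart in both panels, with 1.21 CPM of Adipoq beside 1.40 CPM of cardiac genes and 20.6 CPM of Fabp4 beside 27.2 CPM of macrophage genes.

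Reads on the opposite strand may limit some of these counts, and overlaps here are by gene start and end. Fabp4 overlaps Gm66293, a gene on the other strand, and the pair carried 6739 and 6151 counts. Per library, Gm66293 had 0.73 to 1.15 counts for each count of Fabp4, with a median of 0.91. Reads of the pair cannot be told apart from such counts. Adipoq overlaps Gm59709 (73 counts against 196) and Cidec overlaps Gm52871 (99 against 630), also on opposite strands. Low counts were mostly even numbers: of 72 member counts above 0, 58 were even (80.6%), and of all counts of 1 to 20, 70.2% were. With counts halved and rounded up, 5 members were tested and 2 passed under HDM; Plin1 and Retn fell below the filter.

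**Figure D5:**
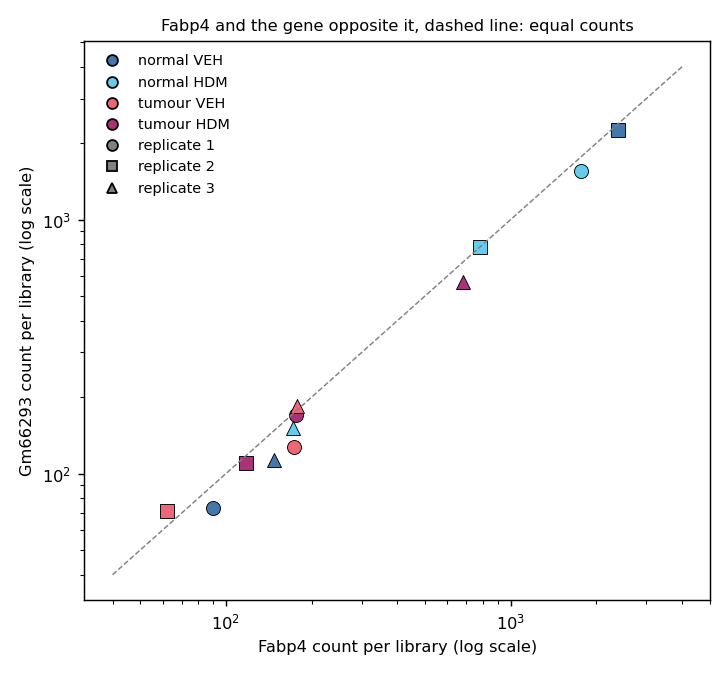
Counts of Gm66293 (y axis, log scale) against counts of Fabp4 on the opposite strand (x axis, log scale) in the 12 libraries, with colour giving the group and shape the replicate. The dashed line marks equal counts, and the points follow it, from 62 counts of Fabp4 in tumour VEH replicate 2 to 2393 in normal VEH replicate 2.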

How the data were processed

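RNA was measured in 12 libraries prepared with a strand-marking dUTP protocol and paired-end sequencing, per the labels' protocols, which name poly(A) selection or ribosomal depletion without choosing. The authors deposited raw counts per Ensembl gene with gene lengths, per the file headers; STAR, Trim Galore, featureCounts, Subread and the mm39 build are named in the submitters' processing notes, without versions. Strand and mate settings are not given in the sources used here. A check on genes nested in exons of a gene with at least 5000 counts found 79 of 79 same-strand genes at 0 and 36 of 42 opposite-strand genes with counts.

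Groups follow the sample titles. Symbols and coordinates come from GENCODE M39 (GRCm39), which holds 78168 of 78298 identifiers; the other 130 carried 0.143% of counts. The fit used edgeR 4.0.16 (R 4.3.3): filterByExpr (minimum count 10), TMM, 1 coefficient per group over all 12 libraries, robust quasi-likelihood F-tests, two-sided, Benjamini-Hochberg over 22190 genes. Correlations used log2 CPM with prior count 2. The SE of an edgeR log2 change was derived from the test, as the size of the change divided by the square root of F. Floors cover counting error only, whereas SDs and SEs include the spread between libraries. The script was tested on simulated data. The members and lists were chosen with earlier results of these data known. Named genes are the members, up to 4 called genes per list with the largest change, the genes most like Adipoq (10) and Fabp4 (5), and others as marked. Alternatives were DESeq2 1.42.0 size factors and Wald test, library size only, no filter, blocks for replicate number and prefix, removal of 4 libraries, each library left out, and, chosen after seeing the data, counts halved. Promoters come from RefSeq (GRCm38.p6).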

Additional observations from a re-analysis of the deposited data

How the results depend on the processing

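Calls of single members depended on few libraries and on low counts. Of the fits of a member's log2 change under an alternative, 638 kept direction and side of the threshold, 20 lost the call, 4 gained it and 27 changed sign; for the wider genes named, 582 kept both and 78 lost the call. With 2 libraries a group, leaving 4 out, no member was called in any comparison. The cause of these changes was not tested.

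For tumour against normal under VEH, 1 member was called with all libraries, 0 with a replicate block, 0 with a prefix block, 0 without the 4 libraries of conflicting prefix, and 0 to 2 when each library was left out. Under HDM 4 were called, 2 with a prefix block (Plin4, and Fabp4, not called with all libraries and no block), 2 with counts halved, 0 without the 4 libraries, and 2 to 5 with each library left out. Of the wider genes under VEH 43 were called, 27 without the 4 libraries and 23 to 48 with each left out (30 with no low-count filter); under HDM, 55 were, and 46 to 58. In HDM against VEH in tumours 1 wider gene was called, 5 by DESeq2, 0 with a replicate block, 0 with a prefix block, 0 without the 4 libraries, and 0 to 1 with each left out. The interaction gave 2 wider genes by DESeq2 against 0. Shares of all genes under these alternatives are not given here, so the counts are a description.

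Whether replicate numbers or prefixes pair the libraries could not be settled. Deviations from the group means correlated from -0.36 to 0.30 for same-numbered libraries and from -0.22 to 0.18 for libraries that share a prefix. With 3 libraries a group, such values cannot decide it. The replicate block gave 36 wider genes under VEH and 57 under HDM, and Plin4 under VEH was then at -2.42 (adjusted p = 0.0555).

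With a prefix block, HDM against VEH within a tissue rests on the 2 prefixes whose treatments disagree, because every other prefix holds a single treatment. Sign changes with that block were, in normal lung, Cidec at -0.21 ± 1.90 (SE), Retn at -0.28 ± 1.11 and Fabp4 at -1.47 ± 0.77. In tumours Fabp4 was at -3.13 ± 0.79. In the interaction Cfd was at 0.36 ± 4.81 and Fabp4 at -1.66 ± 0.91. Without the 4 libraries Fabp4 changed sign in tumour against normal under VEH, at 0.0676, and in the interaction, at -1.86. With each library left out, tumour against normal under VEH ran from -2.68 to 3.62 for Adipoq, -3.44 to 1.50 for Cfd and -2.77 to 0.27 for Fabp4. HDM against VEH in tumours ran from -3.62 to 6.46 for Adipoq, -0.30 to 3.35 for Cfd, -6.80 to 0.50 for Cidec, -2.76 to 4.80 for Plin1, -0.11 to 0.69 for Plin4 and -0.0583 to 1.20 for Fabp4. In normal lung Fabp4 ran from -0.67 to 2.86. The interaction ran from -9.54 to 0.50 for Adipoq, -4.33 to 0.62 for Cfd, -5.72 to 1.80 for Plin1 and -2.03 to 1.50 for Fabp4. Counts halved could not be fitted for Plin1 and Retn. Depth limits Lep, Pck1, Retn, Adipoq and Plin1, with few counts in most libraries.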
